A study of Homo sapiens with 6 samples.

Results

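UNC5C, PLXNB2, PLXNC1, PLXND1, SEMA4A, SEMA4D and SEMA7A are genes of the netrin, semaphorin and plexin families, which guide axons in the embryo and steer adhesion and migration of leukocytes. They were followed here in cells of NOMO-1, an established line from a human myeloid leukaemia with monocytic features. The 7 genes were chosen by name, with their levels in these libraries already known, and with UNC5C known to be near silent in the parental cells. Of the 7, 6 were matched by Ensembl identifier among the 11363 genes listed, and SEMA7A was not analysed here. Because this choice used the contrast between the groups, the values of the 6 genes are given as a description and were not tested. The groups were parental NOMO-1 cells (WT, 3 libraries) and NOMO-1 cells with a knockout of MSLN, the mesothelin gene (MSLN-KO, 3 libraries), and all were sequenced as total RNA after removal of ribosomal RNA. The labels name no drug, time point or clone, and nothing in them says that replicates were separate cultures, so p-values given below reflect the spread among these libraries alone, and that spread may be technical. RNA was taken from bulk cultures, where fewer expressing cells and less RNA per cell cannot be told apart.

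Semaphorins are ligands that are secreted, span the membrane or sit on a GPI anchor, and plexins are their main receptors, whose cytoplasmic part acts on small GTPases of the Ras family and, in the B class, recruits activators of RhoA. Class 3 semaphorins mostly need a neuropilin beside the plexin. Netrins are secreted proteins of the laminin type that attract through DCC or neogenin and repel through the UNC5 receptors, which carry a death domain on their cytoplasmic side. In blood cells SEMA4D, also called CD100, acts between lymphocytes and antigen-presenting cells, SEMA4A costimulates T cells, and PLXNC1 is a receptor of SEMA7A on monocytes and neutrophils.

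The libraries held between 23665824 and 30804446 reads in the listed genes. Levels are CPM, the reads of a gene scaled to library size with TMM factors, and are given as mean ± SD over 3 libraries a group. MSLN was lower in the MSLN-KO libraries, at 45.95 ± 0.846 CPM against 127.3 ± 23.9 CPM, which is the direction of the labels. All 12 monocytic myeloid markers checked were listed. By limma at an adjusted p under 0.05, 4 rose from WT to MSLN-KO, 7 fell and 1 did not pass. By the same test 22.4% of all 11363 listed genes rose and 23.3% fell. The marker lists too were chosen with earlier results of these data known, so nothing is read from that count. The summed level of the 12 markers was between 16100 and 16700 CPM in WT against 7520 to 7940 CPM in MSLN-KO. LYZ, the lysozyme gene, made up most of that sum, at 14540 ± 317 CPM in WT against 6081 ± 320 CPM in MSLN-KO, and without it the other 11 markers summed to 1760 to 1790 CPM against 1490 to 1650 CPM. Of 13 neural markers 1 was listed, NCAM1, at 23.3 to 25.1 CPM in WT against 10.9 to 12.5 CPM in MSLN-KO. The lists of T and NK, B, erythroid and megakaryocytic, epithelial and mesothelial, and stromal and endothelial markers had 1 listed gene each. ITGA2B, of the megakaryocytic list, was 4.08-fold higher in MSLN-KO (1.734 ± 0.325 against 7.07 ± 0.35 CPM, limma adjusted p = 3.7e-07). CD79B, of the B cell list, was lower (14.43 ± 1.25 against 3.933 ± 0.34 CPM), as were NKG7 (39.59 ± 2.11 against 32.66 ± 2.96 CPM) and the endothelial marker PECAM1 (517.6 ± 19 against 382.8 ± 4.1 CPM), while KRT18 was not called (8.674 ± 0.916 against 8.211 ± 1.03 CPM). No gene in the table had fewer than 3 libraries at 4.9 CPM or above. ITGA2B was below that level in every WT library and CD79B in every MSLN-KO library. Each was thus listed through the other group and had to differ in order to appear, so nothing is read from their calls. The part of these markers in the results below was not tested. The groups also differed at loci other than MSLN: MTAP on chromosome 9, chosen after its values were seen, had 0 reads in each WT library (which allows up to 3 reads, between 0.116 and 0.126 CPM) and 443, 470 and 589 reads in the MSLN-KO libraries, and the 371 listed genes of chromosome 15 had a median log2 change of -0.57 against 0.02 for all other genes. Such differences between the cells and the MSLN knockout cannot be told apart with these samples.

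UNC5C encodes a repulsive netrin receptor. The gene (ENSG00000182168.15) lies on the minus strand of GRCh38 chromosome 4, from 95162504 to 95549206. It stood at 0.0408, 0.0387 and 0 CPM in WT replicates 1 to 3, which is 1, 1 and 0 reads. In MSLN-KO replicates 1 to 3 it stood at 29.4, 34.01 and 27.05 CPM, from 757, 903 and 861 reads. UNC5C was thus at or near 0 in every WT library and at a similar level in all 3 MSLN-KO libraries, with no overlap. The ratio of reads scaled to depth was 1110, with an exact 95% counting interval of 307 to 9170, given as a description. That interval pools the reads of each group as independent draws and leaves out the spread between libraries. PCR reads carry no molecular identifiers, so copies of the same molecule may make it too narrow. No gene in the table had fewer than 3 libraries at 4.9 CPM or above, so UNC5C was listed through its MSLN-KO libraries and had to differ in order to appear with such WT values. It was 1 of 24 listed genes with at most 3 reads over the WT group, and 0 listed genes had so few over the MSLN-KO group. Its log2 change of 4.92 (SE 0.11) ranked 4 from the largest among all listed genes. An antisense gene is annotated on the other strand of UNC5C, and the strand setting of the counting is not given in the sources used here, so reads of the pair cannot be told apart.

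The genes whose profile over the 6 libraries lay nearest to that of UNC5C, by Euclidean distance between mean-centred log2(CPM + 1) values, included PITX1 (distance 0.23) and H4C6 (distance 0.49), and 1 of the 3 nearest is not reported here. PITX1, a homeobox factor of hindlimb and pituitary, stood at 0, 0 and 0.0421 CPM in WT and 32, 31.8 and 24.1 CPM in MSLN-KO. H4C6, a histone H4 gene, had 0 reads in each WT library (which allows up to 3 reads, between 0.116 and 0.126 CPM) and stood at 21.2, 23.7 and 22 CPM in MSLN-KO. Both lie on chromosomes other than that of UNC5C. Like UNC5C, PITX1 and H4C6 had at most 3 reads over the WT group and were listed through MSLN-KO. Genes listed in that way resemble each other in profile, so nothing is read from the match.

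Receptors of the netrin family other than UNC5C were few. Of 20 genes on the list of netrins and their receptors and binding partners, 3 were listed: UNC5C, NEO1 and FLRT1. NEO1 encodes neogenin, a receptor of netrins and of repulsive guidance molecules, and stood at 8.853, 9.558 and 8.636 CPM in WT and 7.497, 7.985 and 7.225 CPM in MSLN-KO. The groups did not overlap, but the difference did not pass the test (log2 change -0.22, SE 0.09, limma adjusted p = 0.063). NEO1 was called lower without the variance trend (adjusted p = 0.021) and turned to a log2 change of 0.31 (adjusted p = 0.013) when the median of its neighbours on chromosome 15 was subtracted, within a limma adjusted p of 0.013 to 0.16 over its alternatives. FLRT1, a membrane protein of the leucine-rich repeat type whose family binds UNC5 receptors, rose from 4.528 ± 0.515 to 12.5 ± 0.305 CPM (2.76-fold, log2 change 1.29, SE 0.10, limma adjusted p = 3.5e-07). FLRT1 lies inside MACROD1 on the opposite strand, so its reads are uncertain.

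PLXND1 and PLXNB2 together made up 85.2 ± 1.61% of the summed CPM per kb of the 7 listed plexins in WT and 81.5 ± 0.766% in MSLN-KO. PLXND1, a receptor of SEMA3E and of several other semaphorins that is known for its part in vessel patterning, lies on the minus strand of chromosome 3 (ENSG00000004399.13, 129555175 to 129606818). It stood at 297.1, 268.8 and 256.3 CPM in WT and 183.1, 177.9 and 169.2 CPM in MSLN-KO. Every MSLN-KO library was below every WT library, and the mean was 64.5% of the WT mean (log2 change -0.63, SE 0.06). PLXNB2, a receptor of SEMA4C and SEMA4D and also of angiogenin, lies on the minus strand of chromosome 22 (ENSG00000196576.16, 50274979 to 50307627). It stood at 229.6, 215.9 and 211.9 CPM in WT and 253.7, 248.9 and 214.9 CPM in MSLN-KO. MSLN-KO replicate 3 lay among the WT libraries, so the groups overlapped (log2 change 0.12, SE 0.07). Without that library the log2 change was 0.20.

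The ratio of these plexins within a library does not depend on how the library was scaled. Per kb of annotated exon, PLXND1 was 0.964, 0.928 and 0.901 times PLXNB2 in WT and 0.538, 0.533 and 0.587 times in MSLN-KO. By CPM, without division by exon length, it was 1.29, 1.24 and 1.21 times PLXNB2 in WT. The CPM ratio in MSLN-KO was 0.722, 0.715 and 0.787. Which of the pair led in WT thus rests on the exon length, the union of annotated exons, which may differ from the expressed transcript. PLXNB2 led in each MSLN-KO library by either measure. PLXND1 stood at 28.1 ± 2.15 CPM per kb and PLXNB2 at 30.2 ± 1.28 CPM per kb in WT, ranges that overlapped. In MSLN-KO they stood at 18.2 ± 0.722 and 33 ± 2.91 CPM per kb and did not overlap. The share of PLXND1 in the listed plexins was 41.1 ± 1.5% in WT and 29 ± 0.727% in MSLN-KO.

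PLXNC1 differed least between the groups among the receptors whose libraries did not overlap. It lies on the plus strand of chromosome 12 (ENSG00000136040.9, 94148723 to 94307675) and its end overlaps CEP83 on the other strand. It stood at 50.18, 57.85 and 55.9 CPM in WT and 60.36, 59.93 and 62.74 CPM in MSLN-KO. Its groups did not overlap, but the gap between them was narrower than the range of the WT libraries (log2 change 0.16, SE 0.07).

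**Figure D1:**
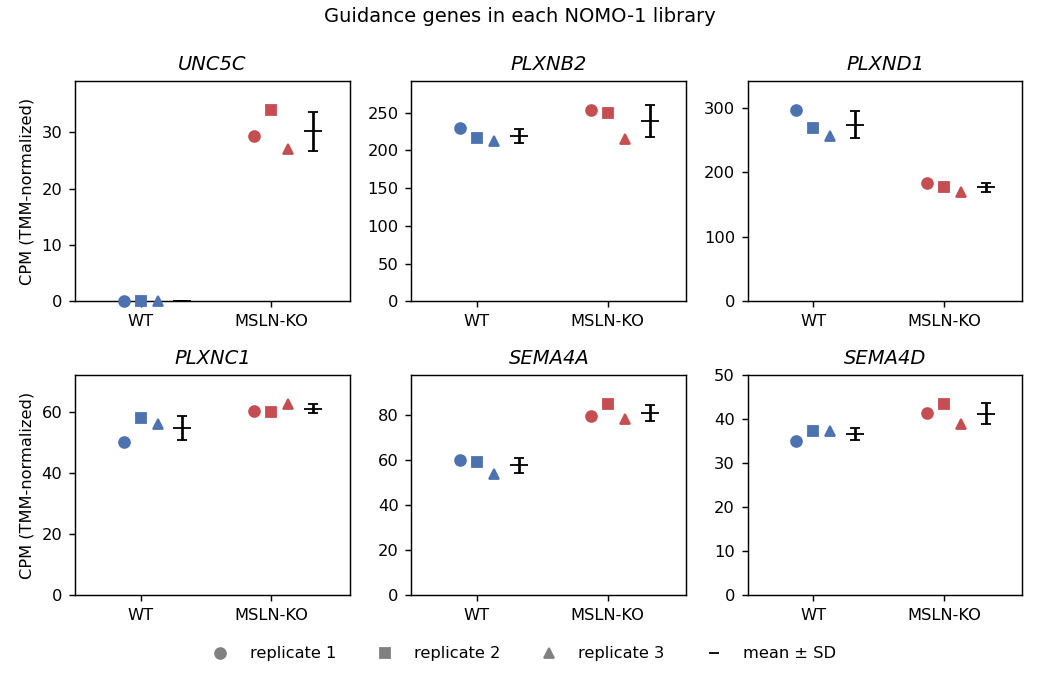
TMM-normalized CPM (y axes, each from 0) of the 6 genes in each library of WT (blue) and MSLN-KO (red), with 1 marker shape per replicate number and bars for the mean ± SD of 3 libraries. UNC5C is at or near 0 in WT and between 27.05 and 34.01 CPM in MSLN-KO, PLXND1 is lower in all MSLN-KO libraries, and only PLXNB2 has groups that overlap.

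SEMA4A and SEMA4D, ligands that span the membrane, were both higher in MSLN-KO. SEMA4A (ENSG00000196189.14, plus strand of chromosome 1, 156147366 to 156177752) stood at 59.81, 59.28 and 53.88 CPM in WT and 79.59, 85.01 and 78.32 CPM in MSLN-KO. The groups were far apart compared with their spread, and the ratio of means was 1.4 (log2 change 0.48, SE 0.06). SEMA4D (ENSG00000187764.12, minus strand of chromosome 9, 89360787 to 89498130) stood at 35.01, 37.27 and 37.37 CPM in WT and 41.48, 43.54 and 38.8 CPM in MSLN-KO. Its groups did not overlap, but the gap between them was narrower than the range of the WT libraries. The ratio of means was 1.13 (log2 change 0.17, SE 0.07). Per kb of exon SEMA4A was 3.55, 3.3 and 2.99 times SEMA4D in WT and 3.98, 4.05 and 4.19 times in MSLN-KO, and it made up 32.6 ± 1.38% and 37.4 ± 1.02% of the 8 listed semaphorins.

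PLXND1 and SEMA4A had the largest differences after UNC5C, in opposite directions, and their promoters are shown because they also differ in CpG content. RefSeq promoter windows (GRCh38.p14, 250 bases before to 50 after a start) matched all 6 genes. The PLXND1 window holds 52 CpG (the letters CG, which read the same on both strands), and 0.78% of 35116 windows of that length hold as many or more. The 4 windows of SEMA4A, all at starts inside the annotated gene, hold between 4 and 10, below the median of 14 over all windows. The SEMA4D window holds 6, that of PLXNB2 14, and those of PLXNC1 hold 9 and 20. The UNC5C window holds 22, and 37.7% of windows hold as many or more. As with SEMA4A, the windows of SEMA4D and PLXNB2 and the PLXNC1 window with 9 CpG lie wholly inside the annotated gene. Those of PLXND1 and UNC5C reach across the annotated start of the gene. The counts need not be those of the main promoter. CpG content was counted and methylation was not measured. A link between CpG content and the direction of change was not tested. The stretches below are the part of each window outside annotated exons, on the strand of the gene, with CpG in capitals, for PLXND1 chr3:129606819-129606926 and for SEMA4A, whose window with most CpG is shown and belongs to a start inside the annotated gene, chr1:156149879-156150018.
PLXND1: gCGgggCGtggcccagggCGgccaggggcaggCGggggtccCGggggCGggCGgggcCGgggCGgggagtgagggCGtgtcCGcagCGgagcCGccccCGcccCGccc
SEMA4A: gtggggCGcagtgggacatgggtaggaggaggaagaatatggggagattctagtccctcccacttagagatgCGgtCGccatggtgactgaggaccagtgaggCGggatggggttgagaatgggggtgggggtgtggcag
The PLXND1 stretch of 108 bases has 15 CpG, and the SEMA4A stretch of 140 bases has 4.

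In all, 5 of the 6 genes had groups that did not overlap, 4 of them higher and 1 lower in MSLN-KO. Over all listed genes 54.7% did not overlap, 26.6% higher and 28.1% lower, and since the genes were chosen with this contrast known, nothing is read from their count. By level per kb of exon, the order in WT was PLXNB2, PLXND1, SEMA4A (8.45 ± 0.481 CPM per kb), PLXNC1 (5.53 ± 0.403), SEMA4D (2.58 ± 0.0943) and UNC5C (0.00248 ± 0.00215). The ranges of PLXNB2 and PLXND1 overlapped, though PLXNB2 was above PLXND1 in each WT library, an order that rests on the exon lengths. The ranges of the other neighbours in the order did not overlap. In MSLN-KO the order was the same, at 11.9 ± 0.521 CPM per kb for SEMA4A, 6.17 ± 0.153 for PLXNC1, 2.91 ± 0.168 for SEMA4D and 2.82 ± 0.332 for UNC5C. There the last pair, SEMA4D and UNC5C, could not be separated.

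**Figure D2:**
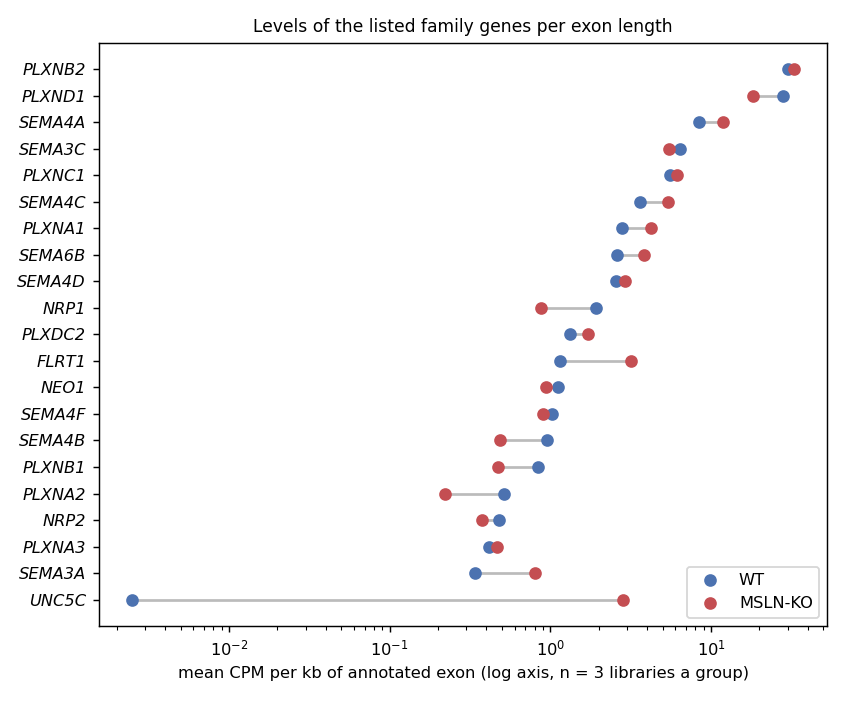
Mean CPM per kb of annotated exon (log axis, n = 3 libraries a group) for the listed netrin receptor, semaphorin, plexin and neuropilin genes in WT (blue) and MSLN-KO (red), ordered by the WT level. PLXNB2 and PLXND1 lead in both groups, and UNC5C moves from 0.00248 to 2.82 CPM per kb, next to SEMA4D.

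MSLN-KO replicate 3 was the lowest MSLN-KO library for 5 of the 6 genes, the exception being PLXNC1. Relative to the mean of the other MSLN-KO libraries its log2 values were -0.22 for UNC5C and for PLXNB2, -0.13 for SEMA4D, -0.09 for PLXND1, -0.07 for SEMA4A and 0.06 for PLXNC1. That library also differed by base composition: the tenth of genes with the highest transcript GC (from 60.9%) had a median of -0.15 there and the tenth with the lowest (up to 38.3%) a median of 0.11. PLXNB2 has 63.1% GC and PLXND1 63.5%, against 46.9% for PLXNC1 and 44.3% for UNC5C. The part of base composition in the PLXNB2 overlap was not tested.

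The 6 genes lie on 6 chromosomes, and the genes around each had a median log2 change near 0. The 11 listed genes within 5 Mb of UNC5C had log2 changes between -0.43 and 0.36. Around PLXND1, 56 of 57 neighbours had a higher log2 change than PLXND1, with a median of -0.07. Around SEMA4A, 115 of 120 neighbours had a lower one than SEMA4A, with a median of 0.02. PLXND1 and SEMA4A still lay inside the range of their neighbours (-0.72 to 0.78 and -1.29 to 1.43), as did PLXNB2, PLXNC1 and SEMA4D. The medians were 0.04, -0.02 and 0.02 around PLXNB2, PLXNC1 and SEMA4D.

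The other genes of the semaphorin, plexin and neuropilin families split between the directions. Outside the 6 genes, 15 of 46 netrin, semaphorin, plexin and neuropilin genes and their close partners were listed, and of these 6 rose, 6 fell and 3 did not pass the test (limma on log2(CPM + 1), Benjamini-Hochberg adjusted over all 11363 genes). Their median log2 change was -0.15, against 0.01 over all listed genes, of which 45.7% were called, 22.4% higher and 23.3% lower. With the columns rescaled to equal sums, calls over all genes were 2942 higher and 2278 lower, against 2545 and 2652 as deposited. This list too was written with results of these data known, and no test was made of it as a list.

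Among the semaphorins, 3 rose, 2 fell and 1, SEMA4F, stood at 6.369 ± 1.02 and 5.618 ± 0.686 CPM without passing the test. SEMA3A, the secreted ligand that collapses growth cones through NRP1, rose from 3.181 ± 0.664 to 7.506 ± 1.45 CPM (log2 change 1.02, SE 0.14, limma adjusted p = 8.2e-05). SEMA4C, a ligand of PLXNB2, rose from 22.14 ± 1.81 to 33.42 ± 3.11 CPM, with MSLN-KO libraries at 35.81, 34.54 and 29.91 CPM all above the WT libraries at 24.23, 21.09 and 21.11 CPM. SEMA6B, which spans the membrane and binds class A plexins, rose from 11.48 ± 0.221 to 16.92 ± 0.695 CPM. SEMA4B fell from 6.691 ± 0.14 to 3.401 ± 0.826 CPM (log2 change -0.82, SE 0.13, limma adjusted p = 0.00026). That call was lost when the median of its neighbours on chromosome 15 was subtracted (log2 change -0.22, adjusted p = 0.21, with a limma range of 4.2e-05 to 0.21 over its alternatives). SEMA3C, which signals through neuropilins with class A and D plexins, fell from 40.12 ± 0.959 to 34.27 ± 5.01 CPM, with MSLN-KO replicate 3 at 39.99 CPM among the WT libraries. Its limma adjusted p was 0.048, the call was lost under 8 alternatives, and the adjusted p ran from 0.0016 to 0.22 over them all. SEMA3A was below 4.9 CPM in every WT library and SEMA4B in every MSLN-KO library. Each was thus listed through the other group and had to differ in order to appear, so nothing is read from their calls.

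Among the plexins and neuropilins, 2 rose and 4 fell. NRP1, the coreceptor of SEMA3A and of VEGFA, fell from 22.18 ± 4.49 to 10.09 ± 0.342 CPM (log2 change -1.05, SE 0.12, limma adjusted p = 1.3e-05). Its WT libraries stood at 17.87, 21.83 and 26.83 CPM and varied more than its MSLN-KO libraries at 9.75, 10.43 and 10.08 CPM. NRP2 fell from 6.669 ± 0.318 to 5.212 ± 0.558 CPM (limma adjusted p = 0.03), a call lost without WT replicate 2 (adjusted p = 0.065), WT replicate 3 (0.099) or MSLN-KO replicate 1 (0.14) and with the regional level subtracted (0.051). Over its alternatives the adjusted p of NRP2 in limma ran from 0.011 to 0.14. PLXNA1, a signalling partner of NRP1, rose from 30.48 ± 2.23 to 46.24 ± 4.22 CPM (log2 change 0.58, SE 0.08, limma adjusted p = 6.9e-05). PLXNA2 fell from 7.061 ± 1.45 to 3.037 ± 0.432 CPM, and PLXNB1, the high-affinity receptor of SEMA4D, fell from 8.117 ± 1.59 to 4.621 ± 0.475 CPM. PLXDC2, a membrane protein with a plexin-like domain, rose from 16.71 ± 2.04 to 21.48 ± 0.67 CPM. PLXNA3 stood at 4.886 ± 0.833 and 5.45 ± 0.429 CPM and did not pass the test. PLXNA2 was below 4.9 CPM in every MSLN-KO library. It was thus listed through WT and had to differ in order to appear, so nothing is read from its call.

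**Figure D3:**
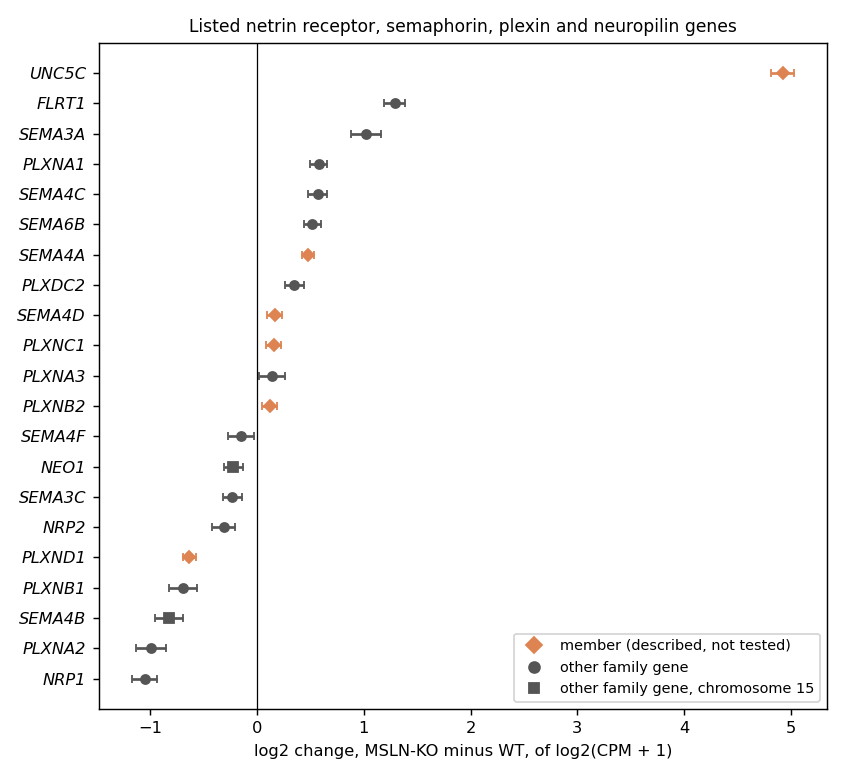
Log2 change of log2(CPM + 1), MSLN-KO minus WT, with its limma SE (bars), for the 6 genes (orange diamonds) and the 15 other listed family genes (grey, squares for chromosome 15). UNC5C stands apart at 4.92, and the other genes spread from -1.05 (NRP1) to 1.29 (FLRT1).

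Genes taken as other receptors, partners and sheddases of semaphorins gave 2 rises and 4 falls among 10 listed, against 45.7% called over all listed genes. That role is not established for all of them, and not for HAVCR2. MMP14, a membrane protease that can release SEMA4D from the cell surface, rose from 22.94 ± 0.619 to 38.61 ± 4.54 CPM. ADAM10, another membrane sheddase, fell from 273.7 ± 23.6 to 158.9 ± 1.61 CPM, a log2 change of -0.78 that was -0.22 with the median of its neighbours on chromosome 15 subtracted. The tetraspanin gene CD9 fell from 21.46 ± 0.528 to 12.37 ± 1.48 CPM and HAVCR2, which encodes the immune receptor TIM-3, from 9.186 ± 1.53 to 4.661 ± 0.291 CPM. The limma adjusted p was 9.7e-05 for HAVCR2 and smaller for the other 3 genes.

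Chromosome 15 held 4 of the 72 listed guidance genes outside the 6, namely NEO1, SEMA4B, ADAM10 and FES (a tyrosine kinase gene mentioned here for its position, log2 change -0.37). Of 371 listed genes there, 308 were called lower and 13 higher. With the median of the genes within 5 Mb subtracted, the log2 change of ADAM10 went from -0.78 to -0.22 and was still called (limma adjusted p = 0.0022, with a range of 4e-07 to 0.0022 over its alternatives), while SEMA4B lost its call and NEO1 reversed, as given above.

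**Figure D4:**
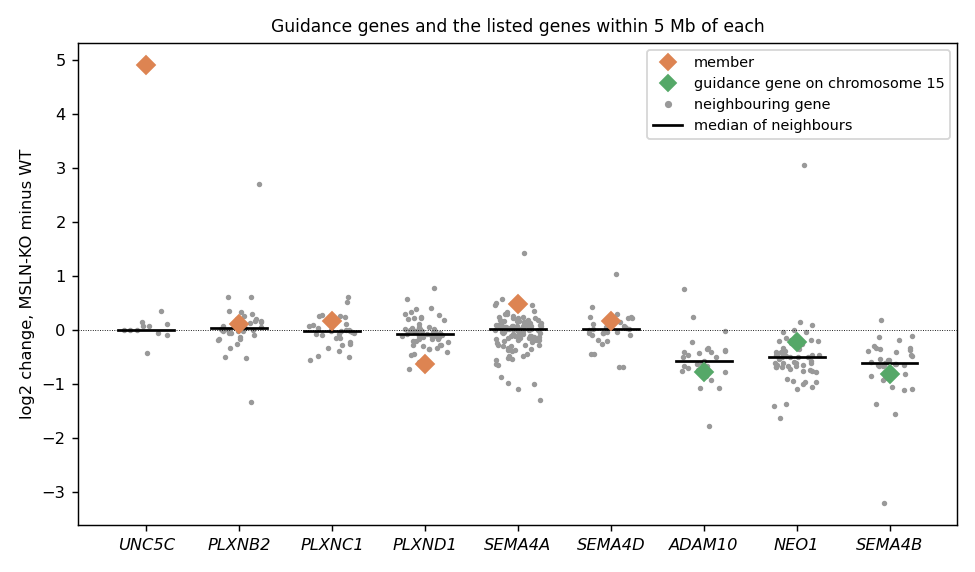
Log2 change, MSLN-KO minus WT, of the 6 genes (orange) and of 3 guidance genes on chromosome 15 (green), over the listed genes within 5 Mb of each (grey points, spread sideways at random) and their median (black line). Medians lie between -0.07 and 0.04 around the 6 genes and between -0.62 and -0.51 around the genes on chromosome 15.

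Intracellular effectors, which carry guidance signals to the cytoskeleton, were mostly listed (39 of 49). Of these 13 rose, 10 fell and 16 were not called, against 45.7% called over all listed genes. Their median log2 change was -0.06. ARHGEF12, a RhoA activator that binds class B plexins, rose from 2.462 ± 0.703 to 8.496 ± 0.0599 CPM (log2 change 1.48, SE 0.14, limma adjusted p = 3e-06). PTK2, which encodes the focal adhesion kinase that netrin receptors engage, rose from 2.408 ± 0.342 to 7.817 ± 1.31 CPM. ABLIM1, an actin-binding protein whose worm relative acts in axon guidance, fell from 30.37 ± 0.966 to 8.681 ± 1.62 CPM (log2 change -1.71, SE 0.11, limma adjusted p = 5.8e-08). MAGED1, which binds an UNC5 receptor and promotes cell death, fell from 32.02 ± 3.42 to 16.34 ± 2.78 CPM. ARHGEF12 and PTK2 were below 4.9 CPM in every WT library. Both were thus listed through MSLN-KO and had to differ in order to appear, so nothing is read from their calls.

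Of the neighbouring guidance systems, Slit and Robo genes gave 1 rise and 1 fall among 4 listed, and ephrins and Eph receptors 0 rises and 2 falls among 4. ROBO1, a Slit receptor, fell from 71.14 ± 2.37 to 52.15 ± 3.15 CPM, and SRGAP1, a GTPase activator that acts below Robo, rose from 6.11 ± 0.138 to 9.72 ± 0.507 CPM. EPHB2 fell from 30.73 ± 1.47 to 23.01 ± 1.53 CPM. EPHA1 fell from 14.2 ± 1.3 to 11.7 ± 0.899 CPM (limma adjusted p = 0.039), a call lost without any one of 5 libraries (all but WT replicate 2; adjusted p between 0.053 and 0.13) and with rescaled columns (0.058). Its smallest limma adjusted p over the alternatives was 0.0042. Over all 72 listed guidance genes outside the 6, 22 rose and 23 fell, which is 62.5% called against 45.7% of all listed genes, with a median log2 change of -0.08 against 0.01. With rescaled columns 23 rose and 18 fell. All these lists were written with results of these data known, so nothing is read from the share called.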

How the data were processed

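RNA of 3 WT and 3 MSLN-KO libraries was sequenced. The deposited table holds CPM after TMM normalization, 1 column per library. The authors' tools, per the submitters' processing notes, included featureCounts, STAR and edgeR, and the build was GRCh38/hg38; for tool versions, annotation release and strand setting, the entry is "not given in the sources used here". All values (100%) were whole multiples, within 0.01, of what 1 read is worth in their column; read numbers printed here rest on that step. Symbols were matched for 11354 of 11363 genes, and coordinates (1-based) and exon lengths, as the union of exons, for 11314 from GENCODE release 29.

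All genes were fitted with limma 3.58.1 in R 4.3.3 (eBayes with trend) on log2(CPM + 1), which understates changes of low genes. Tests were two-sided, with calls where the adjusted p (Benjamini-Hochberg, over all genes) was under 0.05. The code was also run on simulated data with far fewer changed genes than were called here, which checks the code alone. Replicates of a group were not copies of each other: chi-square divided by its degrees of freedom was 2.71 to 14.8 between them. The 7 genes and all lists were chosen with earlier results of these data known. Named beside them were all listed family genes, up to 4 called genes of each further list with the largest change (with up to 2 of the other direction where these shared one), and the 3 profiles nearest to a member with a log2 change of at least 1 in size. Alternatives changed pseudocount, filter, scaling, trend, replicate block, regional level and libraries used. FES and MTAP were added after their values were seen, and 1 nearest profile is not reported here.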

Additional observations from a re-analysis of the deposited data

How the results depend on the processing

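The count of called genes (5197) stayed between 4092 and 5220 over the alternatives, lowest without MSLN-KO replicate 1, and that of called guidance genes outside the 6 (45) between 34 and 45, lowest without WT replicate 3. The log2 change of UNC5C was 5.86 with a pseudocount of 0.5 and 2.80 with a pseudocount of 5, since its WT level is near 0. Over all alternatives the log2 change ran from 0.07 to 0.20 for PLXNB2, 0.10 to 0.20 for PLXNC1, -0.67 to -0.56 for PLXND1, 0.44 to 0.52 for SEMA4A and 0.13 to 0.21 for SEMA4D. Of 364 values of 28 other named genes, 343 kept direction and side of the threshold, 19 lost the call, 1 gained it (NEO1 without the variance trend) and 1 reversed; 23 genes kept both throughout. NEO1 reversed to 0.31 with the regional median subtracted. SEMA3C lost its call under 8 of these alternatives, among them 5 that left out a library (adjusted p between 0.064 and 0.22). The replicate numbers did not pair the libraries (correlations of deviations 0.19, -0.17 and -0.09). Between libraries of unlike number these correlations ran from -0.25 to 0.3, the highest for WT replicate 2 with MSLN-KO replicate 3. The replicate block gave 4946 called genes and 43 called guidance genes. Count tests with edgeR and DESeq2 were planned and not run.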
